A study of Mus musculus with 3 samples.

Results

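The 10 effector genes described here, each read on the 3 arrays, are the cytokine genes Il4, Il13, Ifng, Tnf, Il17a, Il2 and Tgfb1 and the chemokine genes Ccl3, Ccl4 and Ccl5. They were taken by name, through probe sets annotated with that symbol and no other, and all 10 were measured by a single such probe set, out of 19518 genes measured in all. The RNA came from γδNKT cells, innate-like T cells with a γδ T cell receptor (TCR), sorted from the thymus and not stimulated. The arrays compare wild-type (WT, PLZF+/+), heterozygous (PLZF+/lu) and homozygous mutant (PLZFlu/lu) mice, where lu is luxoid, a point mutation of the gene for the transcription factor PLZF that impairs its function. There was 1 array for each genotype, from female C57BL/6 mice 3 to 4 weeks old. According to the methods, all of them also lacked Rag1 and carried Vγ1Vδ6.4 TCR transgenes, and CD4+CD8- thymocytes were sorted in 2 rounds. Such cells develop in large numbers under 1 rearranged receptor, and not every one of them makes PLZF, so the RNA is that of a mixed population. The number of mice behind each RNA is not stated. Zbtb16, the gene of PLZF, was at 8796 on the WT array, 6143 on the heterozygous array and 2890 on the mutant array, in the order of the labels, although a point mutation need not lower the transcript. A single array a genotype gives no replicate error, so differences are reported without p-values, and 2-fold serves only as a rule of size.

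NKT cells are known for releasing cytokines within hours of stimulation. In resting NKT cells in general the genes of Il4 and Ifng are described as held ready, with their chromatin accessible and some mRNA made ahead. Most of the mRNA and the secreted protein follow a signal through the TCR or through receptors for IL-12 and IL-18. The arrays read here measured neither chromatin nor stimulated cells. Il4 and Il13 encode type 2 cytokines that act on B cells, epithelium and myeloid cells. Ifng encodes the macrophage-activating cytokine IFNγ, Tnf an inflammatory cytokine, Il17a a cytokine of barrier defence and Il2 a T cell growth factor. Tgfb1 encodes TGF-β1, which is secreted as a latent complex and restrains T cells, and Ccl3, Ccl4 and Ccl5 encode chemokines that attract leukocytes to sites of inflammation.

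The promoters of the 3 members with the largest differences between the genotypes, and of Tgfb1, the one far above background, are given here so that sequence and values can be set side by side. Each line gives the 250 bases before the transcription start in RefSeq on build GRCm38.p6, and matches to 4 motifs are in capitals. These are the TATA box (TATANA), the core bound by NFAT (GGAAA), an AP-1 site (TGANTCA) and a MAF half-site (TGCTGA), searched on both strands. For Il4 it is the outer of 2 listed starts. In these 4 windows matches to different motifs did not overlap, while TATA matches overlapped each other in Il4 and Il13.
Il4, chr11:53618666-53618915, minus strand: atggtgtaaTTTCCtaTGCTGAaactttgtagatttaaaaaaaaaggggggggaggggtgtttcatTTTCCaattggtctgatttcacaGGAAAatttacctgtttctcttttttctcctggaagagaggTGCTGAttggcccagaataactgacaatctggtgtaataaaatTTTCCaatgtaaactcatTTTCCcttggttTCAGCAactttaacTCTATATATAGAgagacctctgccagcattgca
Il13, chr11:53634703-53634952, minus strand: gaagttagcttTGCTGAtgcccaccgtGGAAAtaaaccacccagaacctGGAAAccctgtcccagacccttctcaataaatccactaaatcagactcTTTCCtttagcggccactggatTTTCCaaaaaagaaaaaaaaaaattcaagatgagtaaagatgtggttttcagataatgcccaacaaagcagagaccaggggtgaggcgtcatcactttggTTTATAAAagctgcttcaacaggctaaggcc
Tnf, chr17:35202008-35202257, minus strand: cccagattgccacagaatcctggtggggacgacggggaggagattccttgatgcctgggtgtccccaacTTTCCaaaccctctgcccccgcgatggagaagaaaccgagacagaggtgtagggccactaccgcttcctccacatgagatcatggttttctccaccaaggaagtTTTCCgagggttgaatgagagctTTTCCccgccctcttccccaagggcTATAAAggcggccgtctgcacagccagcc
Tgfb1, chr7:25686752-25687001, plus strand: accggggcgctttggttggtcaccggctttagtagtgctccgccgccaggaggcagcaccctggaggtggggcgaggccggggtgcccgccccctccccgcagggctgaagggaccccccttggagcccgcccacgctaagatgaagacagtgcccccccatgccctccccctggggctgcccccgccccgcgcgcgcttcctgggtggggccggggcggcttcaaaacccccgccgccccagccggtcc
The Il4 window held 5 NFAT cores and 3 MAF half-sites, the Il13 window 4 and 1, and the Tnf window 3 and 0. A TATA match on the strand of the gene began at position -29 in Il13, in Tnf and in Il4, counted back from the start, and the overlapping TATA matches of Il4 ran from -33 on. The Tgfb1 window held none of the 4 motifs and was 75.2% G or C, against 37.6% in Il4, 43.2% in Il13 and 57.6% in Tnf. Of the 8 members with a promoter entry, 6 had a TATA match, 6 an NFAT core, 4 a MAF half-site and 1 an AP-1 match. Over all 32851 promoter windows the shares were 22.6%, 55.6%, 16.1% and 6.75% in the same order. Such matches are descriptions of letters and not measured sites.

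Genes of olfactory receptors, which belong to the sensory neurons of the nose, gave the background. Their 1033 probe sets ranged from 14.3 to 1015 over the 3 arrays, and 95% of their values lay below 107.9, called the background level here. Tgfb1 was the one member above that whole range on each array. The other 9 lay within it, and 5 of them, Ifng, Il17a, Il2, Ccl3 and Ccl4, were at or below the background level on all 3 arrays. Il4, Il13 and Ccl5 exceeded the level on all 3 arrays, and Tnf on 2 of them. Above the 99th percentile of olfactory receptor values, 178, lay Il13 on all arrays and Il4 in WT alone. Of all measured genes, 60.3% exceeded the level on all 3 arrays, against 4 of the 10 members. A value at or below the background level gives no measure of how much mRNA was present, a value between that level and the highest olfactory receptor value could also be given by some of these probe sets, and 2 genes cannot be ranked by the brightness of their probe sets. With the 95th percentile of vomeronasal receptor and keratin-associated protein probe sets, 154, as the level, Ccl5 no longer exceeded it on any array, and 3 members did on all 3.

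**Figure D1:**
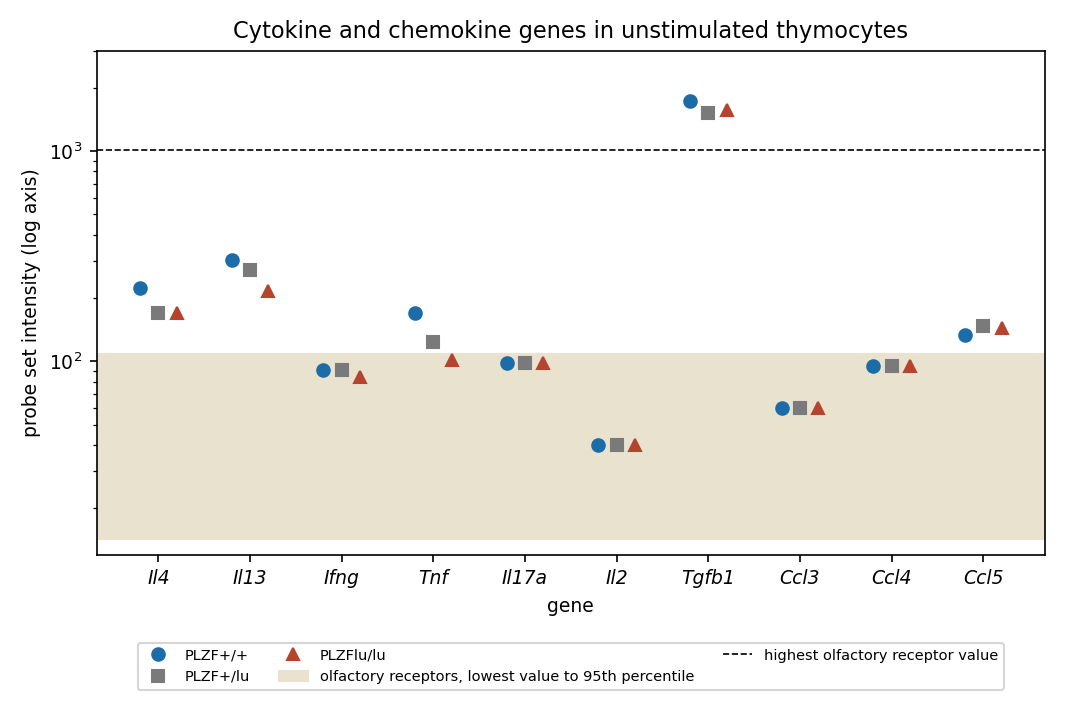
Probe set intensity of the 10 genes on a log axis, from a single array a genotype, hence without error bars; circles mark WT (PLZF+/+), squares heterozygous (PLZF+/lu) and triangles mutant (PLZFlu/lu) cells. The shaded band runs from the lowest olfactory receptor value to their 95th percentile at 107.9, and only Tgfb1 lies above the dashed line at their highest value of 1015.

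Of the type 2 cytokine genes, Il4 gave an intensity of 224 on the WT array, 170 on the heterozygous array and 170 on the mutant array. The WT array stood alone, and the heterozygous and mutant values were identical. Exactly 1 equal pair of arrays was common in the deposited values. It was found for 28.7% of all measured genes and for 30.3% of those above the background level on all 3 arrays. This is 1.32-fold between WT and mutant cells, or 0.40 on the log2 scale. Il13 was at 303 in WT, 271 in heterozygous and 216 in mutant cells. Here heterozygous cells lay between the others, nearer to WT, and the outer genotypes differed by 1.40-fold (0.49 on the log2 scale). Of 11973 genes above the background level on at least 1 array, 2.91% were higher in WT by at least the difference of Il4, and 1.95% by at least that of Il13. Both genes stayed below 2-fold, the size reached in either direction by 0.43% of all measured genes. In bulk RNA, fewer cells that hold a transcript and less of it in each cell cannot be told apart.

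Tnf was at 170 in WT, 124 in heterozygous and 101 in mutant cells. The genotypes were thus in the order of their intact PLZF alleles, and the mutant value lay below the background level. Taken against the background level of 107.9, Tnf was at least 1.57-fold higher in WT than in mutant cells. This bound is 0.65 on the log2 scale, and the deposited values themselves, the mutant one not above background, lie 0.74 apart. The bound depends on the level chosen. It is smaller with the level of 154 given above, and with the 99th percentile, 178, the WT value itself lies within the background. Tnf was the 1 member past 1.5-fold, by the bound at 107.9 as by the deposited values, a size that 1.43% of all measured genes reached in either direction. Mast cells and basophils also make Il4, Il13 and Tnf, and of 6 of their markers Cpa3 exceeded the level, at 178 in WT, 143 in heterozygous and 111 in mutant cells, in the same order as Il13 and Tnf. The other 5, Mcpt4, Mcpt8, Fcer1a, Ms4a2 and Kit, were at or below it on all arrays, and all but Kit had identical values. The summed intensity of the list was 394, 359 and 326, and nearly all of its change was that of Cpa3 alone. The part of mast cells and basophils in the values of Il4, Il13 and Tnf was not tested.

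Ifng was at 91.1 in WT, 91.1 in heterozygous and 84.3 in mutant cells. All 3 values lay below the background level, where 89.1% to 91.9% of the olfactory receptor values were lower, so no fold is given. Il17a was at 97.7 and Il2 at 40.0 on each of the 3 arrays. Both had identical values in all genotypes, and the value of Il2 lay near the middle of the olfactory receptors, 52.3% of whose values were lower. At this signal over background, neither the presence of these 3 mRNAs nor a difference between the genotypes was measurable.

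Tgfb1 was at 1727 in WT, 1524 in heterozygous and 1564 in mutant cells. It was highest in WT, and heterozygous cells lay below both others. The difference between WT and mutant cells was 1.10-fold (0.14 on the log2 scale), and 14.4% of the genes above the background level were higher in WT by as much or more. Among 20 genes of the TGF-β family, its activation and its signalling, all of them measured, 12 exceeded the level on all 3 arrays and none differed by more than 2-fold. In that list 3 genes were higher in WT, 7 lower and 10 equal, with a median of 0.00 on the log2 scale. Smad7, an inhibitor of TGF-β signalling, had the largest difference, at 310 in WT, 406 in heterozygous and 596 in mutant cells (-0.94 on the log2 scale). Tgfb3, which encodes another TGF-β, was at 2804.5, 2200.5 and 2538 in the same order, and Smad3, a signal transducer, at 2130, 1829 and 1965. In both, as in Tgfb1, the heterozygous value was the lowest of the 3.

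Of the chemokine genes, Ccl5 was at 133 in WT, 147 in heterozygous and 144 in mutant cells. It was the 1 member lower in WT than in mutant cells, by 0.11 on the log2 scale or 1.08-fold, and heterozygous cells lay above both others. Of genes above the background level on at least 1 array, 8.45% were lower in WT by as much or more. The standard deviation of this difference over olfactory receptor probe sets was 0.09, so the difference of Ccl5 is close to that spread. Ccl3 was at 59.9 and Ccl4 at 94.5 on each array, both within the background and both identical in all genotypes. Ccl5 is a late effector gene of memory T cells, NK cells and mature NKT cells, while Ccl3 and Ccl4 are induced early after stimulation.

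Over the 10 members, none differed by more than 2-fold between WT and mutant cells, where 0.43% of all genes did. None did so between WT and heterozygous cells (0.133% of all genes) or between heterozygous and mutant cells (0.123%). These 3 comparisons share their arrays. The differences between WT and heterozygous cells were 0.40 for Il4, 0.16 for Il13 and 0.46 for Tnf on the log2 scale. Those between heterozygous and mutant cells were 0.00 for Il4 and 0.33 for Il13, and for Tnf at least 0.20, taken against the background level. This Tnf bound is lost with the level of 154 from vomeronasal receptor and keratin-associated protein probe sets, which exceeds the heterozygous value of 124. Among the 5 members above the background level on at least 1 array, Il4, Il13, Tnf and Tgfb1 were higher in WT than in mutant cells and Ccl5 was lower. By the sign of the deposited values over all 10, and so with Ifng counted although it lay below the level, 5 were higher in WT, 1 was lower and 4 were equal, with a median log2 difference of 0.06. With quantile normalization or cyclic loess the equal values parted and the counts became 9 higher and 1 lower, and with centring on the median 5 and 5, although the 4 equal genes then differed by no more than 0.0121 on the log2 scale. Over all measured genes 24.9% were higher in WT, 16.9% lower and 58.1% equal, with a median of 0.00, and over genes above the level on at least 1 array the shares were 35.7%, 19.6% and 44.7%. The olfactory receptors leaned the other way, with 6.39% of their probe sets higher and 25.5% lower in WT.

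Identical values on all 3 arrays were common in the deposited file. They were found for 46.8% of all measured genes, for 67.8% of those at or below the background level on all arrays and for 34.2% of those above it on all arrays. Among the 5 members not above the level on any array, 4 had identical values, and among the 5 others, none had. Heterozygous cells lay strictly between the other genotypes for Il13 and Tnf, 2 of the 10 members, and for 11.4% of all measured genes. An equal value here is thus no evidence of an equal mRNA amount.

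The genes next to the members on the chromosome were read in the same way, with 2 measured neighbours taken on each side in the gene order of GRCm38.p6. Il4 and Il13 lie beside each other, between Kif3a, which encodes a motor protein, and Rad50, a DNA repair gene whose locus holds regulatory elements of the cluster. Kif3a was at 164 and Rad50 at 1067 on each array, a tie shared by 34.2% of genes above the level on all arrays. Il5, the further type 2 cytokine of the cluster, was at 58.6, 65.2 and 55.7, below the background level in each genotype. Tnf lies between Ltb and Lta, which encode the subunits of lymphotoxin. Ltb was at 1228 in WT, 910 in heterozygous and 949 in mutant cells, a log2 difference of 0.37, while Lta was at 190.5 on each array. Il17f, beside Il17a, was at 116 on each array, just above the background level, and Il21, beside Il2, at 44.0, 43.2 and 43.2, within the background. Iltifb, an IL-22 gene copy beside Ifng, was at 39.5, 39.8 and 39.8. In the chemokine cluster the genes from Ccl9 to Wfdc18, with Ccl3 and Ccl4 among them, lay within the background and had equal values in WT and mutant cells. Beside Tgfb1, B9d2 was at 174, 174 and 137 and Ccdc97 at 1674, 1454 and 1479, so Ccdc97, like Tgfb1, was highest in WT and lowest in heterozygous cells. Of the 31 neighbours that are not members, 9 were higher in WT than in mutant cells, 6 lower and 16 equal, none by more than 1.5-fold.

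**Figure D2:**
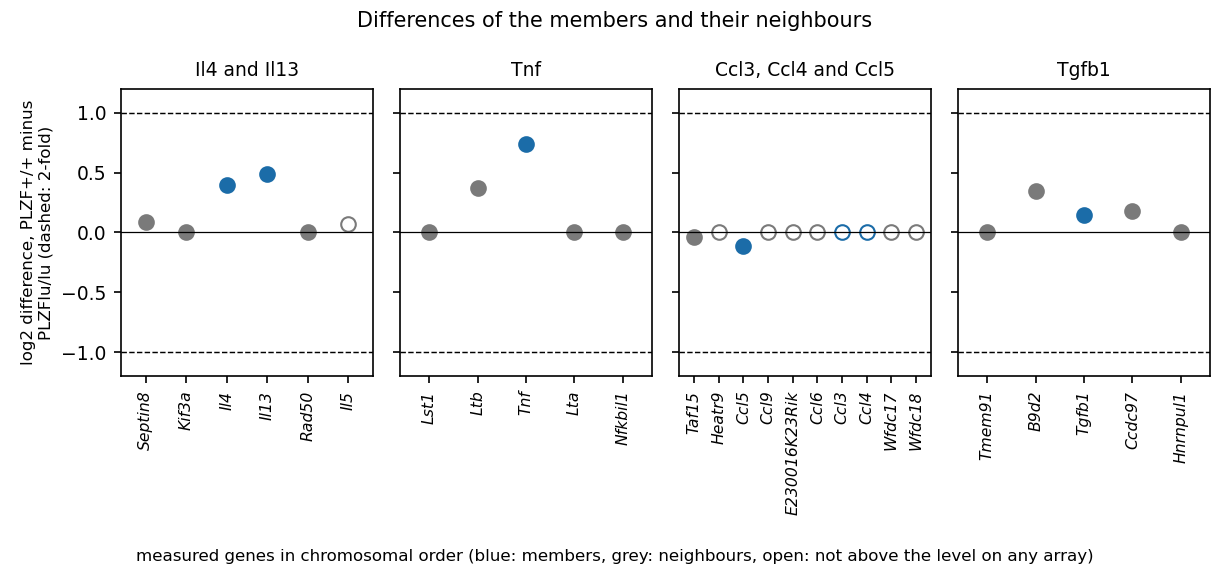
Log2 difference between WT and mutant cells, 1 array each, for members in blue and measured neighbours in grey, in chromosomal order and not to scale of distance; open symbols lie at or below the background level on all arrays. Only the loci of Il4 and Il13, of Tnf, of Ccl3, Ccl4 and Ccl5, and of Tgfb1 are shown. The largest differences are those of Tnf (0.74, its mutant value below the level), Il13 (0.49), Il4 (0.40), Ltb (0.37) and B9d2 (0.35). Kif3a, Rad50 and Lta are among the 15 of all 31 neighbours, shown or not, with identical values, which is no evidence of equal mRNA.

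Most other cytokine and chemokine genes of the resting cells were within the background too. Of 37 further cytokine genes 35 were measured, 11 exceeded the level on all 3 arrays and none differed by more than 2-fold, with 6 higher in WT, 5 lower and 24 equal. Among the 11 were Mif, Ltb, the bone-resorption cytokine gene Tnfsf11 (RANKL) and Osm. Mif, which encodes a macrophage inhibitory factor, was at 3212 on each array by the brightest of its 3 probe sets. Tnfsf11 was at 648, 625 and 625 in WT, heterozygous and mutant cells, and Osm at 521, 511 and 521. Il27, a subunit gene of IL-27, was at 373, 375 and 453, lower in WT by a log2 difference of -0.28, and Il16 at 286, 286 and 313. Of 30 further chemokine genes, all measured, 7 exceeded the level on all arrays, 1 was higher in WT, 6 lower and 23 equal, and none passed 2-fold. Ccl19, which guides naïve T cells and has closely related copies in the mouse genome, was at 512, 459 and 819, a log2 difference of -0.68. These values are from the brightest of its 3 probe sets, and the others are not given here. Ccl25, a chemokine of thymic epithelium, was at 512, 452 and 450 by the brighter of its 2 probe sets. Cxcl17 was at 168, 177 and 168, Ccl7 at 127 on each array and Ccl11 at 110, 114 and 114. The median log2 difference was 0.00 in both lists, as over all genes, and identical values on all 3 arrays were found for 60.0% of the further cytokine genes and 66.7% of the further chemokine genes.

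Of 18 receptor genes for the members' products 16 were measured, 12 of them above the level on all arrays. More than 2-fold differences were found for 2 (12.5%), both lower in WT. The share was 0.43% over all measured genes and 0.66% over those above the level on all arrays. Earlier results for both were known when the list was made, so it is not independent evidence. The IFNγ receptor chain gene Ifngr1 was at 1872 in WT, 3906 in heterozygous and 7152 in mutant cells, a log2 difference of -1.93, while its partner Ifngr2 was at 1602, 1135 and 967, a difference of 0.73 in the other direction. Il4ra, which serves IL-4 and IL-13, was at 1430, 1759 and 2891 (-1.02 on the log2 scale), opposite in sign to both ligand genes. Il17ra was at 2000, 2520 and 2632, a log2 difference of -0.40. The 4 receptor genes at or below the background level on all arrays were Ccr1 and Ccr3, of the chemokine receptors, and Il13ra1 and Il13ra2, of the IL-13 receptors.

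Among 36 measured transcription regulators of cytokine genes, 4 were more than 2-fold higher in WT and 1 was lower. Together these are 13.9% of the list, against 0.43% of all measured genes. The 4 were Rora (2.41 on the log2 scale), Maf (2.41), Zbtb16, which encodes PLZF itself (1.61), and Zbtb7b (1.42). The lower one was Stat4 (-1.30), the transducer of IL-12. Whatever the size, 20 of the list were higher, 10 lower and 6 equal, with a median log2 difference of 0.05. Over all measured genes 24.9% were higher, 16.9% lower and 58.1% equal. Earlier results for these genes were known when the list was made, so it is not independent evidence. Maf, an activator of Il4, was at 874 in WT, 260 in heterozygous and 164 in mutant cells, and Gata3, an activator of Il4 and Il13, at 4297, 3260 and 3175. For Gata3 the heterozygous and mutant values were close to each other and WT stood above them. In Il4, where WT also stood above, they were an exact tie, which is common in the deposited values and no evidence of equal mRNA. Il13 differed from both, as its heterozygous value lay nearer to WT. A link between Gata3 and either gene was not tested. The 4 regulators at or below the background level on all arrays were Tbx21, Eomes and Hlx, which activate Ifng, and Bhlhe41. None of 12 genes that control the decay or translation of cytokine mRNA differed by more than 2-fold, and all 12 exceeded the level on all arrays. Of these, Zfp36l1 was at 2027, 1501 and 1501 (0.43 on the log2 scale), Zfp36 at 696, 552 and 553 (0.33), Zfp36l2 at 6151, 7860 and 7510 (-0.29) and Hnrnpd at 1739, 2146 and 2194 (-0.34). The proteins of the Zfp36 family promote the decay of mRNAs with AU-rich elements, among them that of Tnf.

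**Figure D3:**
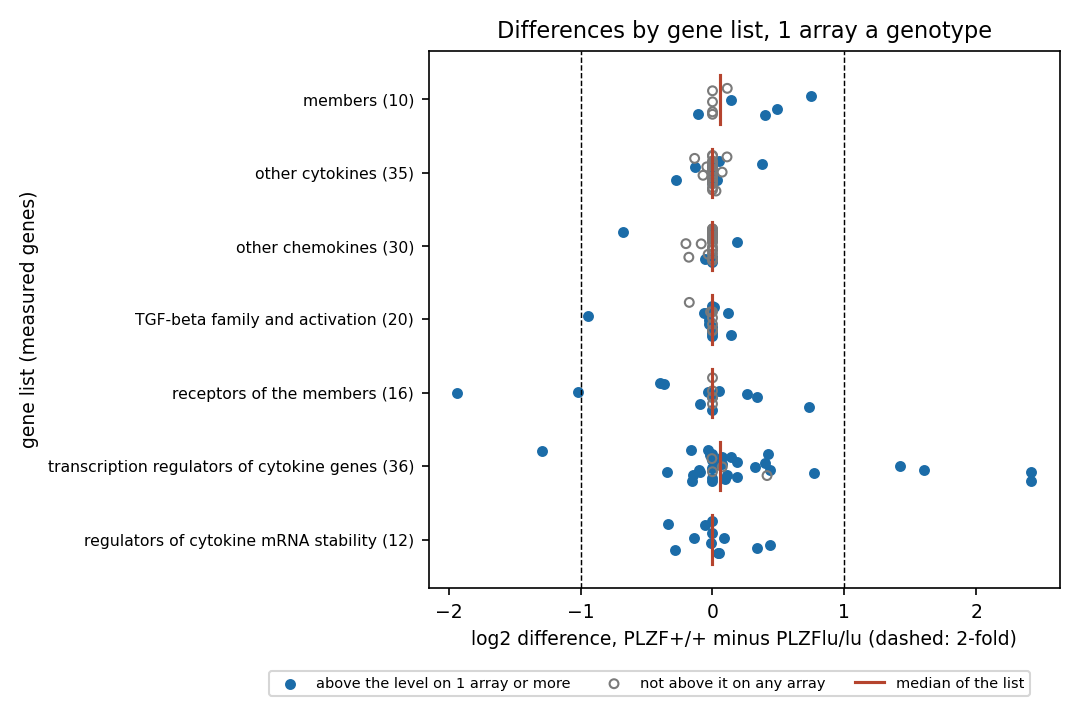
Log2 difference between WT and mutant cells for each measured gene of 7 lists, 1 array a genotype; filled symbols exceed the background level on at least 1 array, open symbols on none, and red bars are list medians. By the deposited values the members lie between -0.11 and 0.74, inside the dashed 2-fold lines, while receptor genes reach -1.93 and transcription regulators 2.41.

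Likeness over the 3 arrays was measured as the Euclidean distance between log2 values centred on each gene's mean, against 111 genes of the lists that exceeded the level on all arrays. The nearest gene to Il4 was Zfp36l1, at a distance of 0.03, and the nearest to Il13 was Tgfbr3, a TGF-β co-receptor gene, at 0.11. The nearest to Tgfb1 was Rela, an NF-κB subunit gene (0.03), and to Ccl5 it was Klf13 (0.04). Patterns over 3 values repeat often, and 21 of the 11767 other genes above the level on all arrays were as near to Il4 as Zfp36l1, 93 as near to Il13, 123 to Tgfb1 and 129 to Ccl5.

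The labelled cell type was checked against markers. All 10 measured T cell markers exceeded the level on all arrays, with Cd3e at 10550, 11334 and 10599 and Cd4 at 6401, 6208 and 7191, while of 5 γδ T cell markers Sox13 alone was measured (317, 317 and 275). Beside the mast cell and basophil markers given above, other cell types were read as well. Of 12 macrophage and dendritic cell markers 6 exceeded the level, and Lyz2, Csf1r, Adgre1, Itgax, Cd14 and H2-Aa did not, with sums of 3576, 3188 and 3224. Cst3 alone, at 2236, 1875 and 1885, made up most of each sum. None of 4 measured NK cell markers exceeded the level, and their sums were 179 to 186. Of 5 markers of CD4+CD8+ thymocytes 4 exceeded it, and the sum of the 5 was 2105 in WT, 3209 in heterozygous and 4055 in mutant cells. Most of this sum was Cd8b1, at 1290, 2263 and 2958, lower in WT than in mutant cells by 2.29-fold. Cd8a was at 369, 519 and 601, while Ptcra was at 167 on each array. Rag2 lay below the level and was equal in WT and mutant cells. Rag1, which the methods give as knocked out in all groups, was among the 4, at 229, 211 and 278, and whether its probes lie in the deleted part is not stated. B cell marker sums were 1838, 1622 and 1586 (2 of 4 above the level, Ms4a1 and Cd79a not), mostly from Cd79b, at 1658, 1440 and 1406. Those of thymic epithelium were 1040, 986 and 967 (3 of 6 above the level, without Epcam, Krt5 and Psmb11). The 1 measured erythroid marker, Alas2, was at 82.6 on each array. The part of these other cells in the values of the members was not tested.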

How the data were processed

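Affymetrix Mouse Gene 1.0 ST arrays were processed by the authors in GenePattern with the modules ExpressionFileCreator, MultiplotPreprocess and Multiplot. Probe sets of normalization controls were left out, and the authors deposited linear probe set intensities, with medians of 160.0, 161.8 and 159.7 for PLZF+/+, PLZF+/lu and PLZFlu/lu. Neither background correction nor summarisation is stated there. The submitters' notes name build mm8, so no probe set coordinates are given.

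Values were used as deposited and compared as log2 intensity. Symbols came from the platform annotation (21065 of 24800 probe sets with exactly 1), updated by gene identifier to RefSeq GRCm38.p6 for 20983. A gene is given by its brightest probe set. Equal means within 1e-06 on the log2 scale. The members, lists and rules were chosen with earlier results of these data known. Named besides the members are, in each list, genes past 2-fold or else the largest differences above the background level, up to 4, the 4 highest mean values among cytokines and among chemokines, neighbours within 2 measured genes and the nearest patterns. Gata3 and genes in counts of 5 or fewer were named after their values were seen, and cell type markers come from set lists. Alternatives were other scalings, 32 added to each intensity, other probe set rules, PLZF+/+ averaged with PLZF+/lu, a 1.5-fold threshold and other background levels. Python 3.11.15, numpy 2.4.6, pandas 2.3.3, matplotlib 3.10.9, R 4.3.3 and limma 3.58.1 (for normalization) were used, and the counting was tested on simulated data.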

Additional observations from a re-analysis of the deposited data

How the results depend on the processing

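The count of members past 2-fold was 0 under every alternative at that threshold, and 1 (Tnf) at 1.5-fold. The median log2 difference of the members stayed between 0.03 and 0.06 under the other settings but was 0.40 over the 5 members above the background level on at least 1 array; this leaves out Ifng and the 4 members with equal values. Members higher in PLZF+/+ numbered 9 in place of 5 with quantile normalization and with cyclic loess, as values that were equal parted by at most 0.0121. Members above the background level on all arrays numbered 7 with the 90th percentile of the olfactory receptor values, 2 with the 99th and 1 with their highest value, in place of 4, and 3 (without Ccl5) with the level of vomeronasal receptor and keratin-associated protein probe sets. No difference of a member other than 0 changed its sign. With PLZF+/+ averaged with PLZF+/lu, the difference was 0.20 for Il4, 0.51 for Tnf, 0.05 for Tgfb1 and -0.04 for Ccl5, and with 32 added that of Tnf was 0.60. No paired analysis was possible because each genotype has 1 array. The number of arrays limits the precision, and signal within the background limits Ifng, Il17a, Il2, Ccl3 and Ccl4.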
